A study of Mus musculus with 2 samples.

Results

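A set of 8 genes that mark neuronal or interneuron differentiation was looked up by symbol in a single-cell expression table of 10666 genes, and 4 of the 8 had a row. These were Dcx, Map2, Rbfox3 and Gad1. Tubb3, Stmn2, Dlx1 and Dlx2 were not analysed here. The rule that picked them used gene names and no measured value, although earlier results of these data were known when the set was proposed. The data came from 2 replicate cultures of cortical neurospheres, which are free-floating clusters of neural progenitor cells. They came from wild-type C57BL/6 mice at embryonic day 14.5 and were fed with EGF and bFGF, each at 10 ng/ml, growth factors that keep progenitors dividing. By the methods, the starting tissue was dissected dorsal telencephalon, the wall of the future cortex. The labels call the cultures replicates and do not say whether they came from separate embryos. Both belong to a single group, with no treatment or mutant to compare, and each library held the cells of 1 culture. Culture 1 held 5748 cells with a median of 19477 unique molecular identifiers (UMIs, each the count of 1 captured transcript) per cell. Culture 2 held 7057 cells with a median of 14637 UMIs. A total of 48 cell barcodes occurred in both libraries. The progenitor markers Vim and Nes were in 99.2% and 93.3% of cells of culture 1 and in 99.9% and 89.8% of culture 2, and Olig2, a factor of ventral and oligodendrocyte progenitors, in 97.3% and 91.9%. With 1 library per culture and a single group, no test between groups was possible, and every interval below is an exact (Clopper-Pearson) 95% binomial interval that covers counting error only.

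A newborn neuron leaves the cell cycle and switches on genes of its cytoskeleton in a rough order. Dcx encodes doublecortin, a microtubule-binding protein of migrating immature neurons, and Map2 encodes a microtubule-associated protein of dendrites. Rbfox3 encodes NeuN, a splicing regulator of mature neurons. Gad1 encodes GAD67, the enzyme that makes the transmitter GABA, and marks interneurons. Dcx and Map2 transcripts are also known in cells of the oligodendrocyte lineage, so neither gene alone defines a neuron. Radial glia and other progenitors divide and express genes such as Nes, Vim and Slc1a3, while oligodendrocyte precursors express Pdgfra, Sox10 and Cspg4.

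In the GENCODE annotation of GRCm38, Dcx lies on the minus strand at chrX:143855842-143933311, and no annotated gene overlaps it. Map2 lies on the plus strand at chr1:66175273-66442583. Rbfox3 lies on the minus strand at chr11:118489762-118911597 and Gad1 on the plus strand at chr2:70553072-70602014. Gad1 overlaps an antisense gene, Gad1os, which has no row in the table. Map2 and Rbfox3 each overlap 3 annotated genes, some on the same strand, and none of these has a row either. The upstream sequences of Dcx and Map2 are shown because this was the pair of members with the most shared cells beyond the expected number. They were taken from RefSeq (GRCm38.p6), run 5′ to 3′ on the gene's own strand and end at the first annotated transcript start, at chrX:143933312-143933469 for Dcx and chr1:66175079-66175272 for Map2. Capitals mark TATAAA, searched on both strands.
Dcx upstream: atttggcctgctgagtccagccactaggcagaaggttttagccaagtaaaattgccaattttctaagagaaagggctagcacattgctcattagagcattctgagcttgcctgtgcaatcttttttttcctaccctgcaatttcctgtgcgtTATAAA
Map2 upstream: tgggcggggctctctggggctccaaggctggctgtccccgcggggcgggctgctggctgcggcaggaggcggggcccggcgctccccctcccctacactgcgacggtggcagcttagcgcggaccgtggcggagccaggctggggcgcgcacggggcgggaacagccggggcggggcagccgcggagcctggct
The Dcx window ended in 1 TATAAA, a match that 7.57% of 32851 upstream windows of the same 158 bases held, and the 194-base Map2 window had 0. Neither window held the E-box letters CANNTG, which 51.1% of windows of 158 bases and 58.0% of windows of 194 bases contained on either strand. These are matches of letters and not binding sites.

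Map2 was the member found in most cells, and the other 3 were each found in a small minority. A gene was called detected in a cell when its value was above 0. Map2 was detected in 4466 of 5748 cells of culture 1, or 77.7% (76.6 to 78.8), and in 4487 of 7057 cells of culture 2, or 63.6% (62.4 to 64.7). Dcx was detected in 422 cells of culture 1 (called Dcx cells below), or 7.34% (6.68 to 8.05), and in 110 cells of culture 2, or 1.56% (1.28 to 1.88). The cultures therefore differed 4.71-fold in the share of Dcx cells, and their intervals did not overlap. For scale, the median absolute log2 ratio of shares between the cultures was 0.448 over 5619 genes in 1 to 30% of cells of both. How many of all genes had intervals apart was not counted. Rbfox3 was detected in 217 cells of culture 1, or 3.78% (3.30 to 4.30), and in 304 cells of culture 2, or 4.31% (3.85 to 4.81), and here the intervals overlapped. Gad1 was detected in 187 cells of culture 1, or 3.25% (2.81 to 3.75), and in 50 cells of culture 2, or 0.709% (0.526 to 0.933), a 4.59-fold difference between the cultures. In all, 3 members reached 1% of cells in both cultures, and Gad1 did so only in culture 1. Most genes of the table reached 1%. In culture 2, only 2.64% of all genes had a lower share than Gad1 and 7.89% a lower share than Dcx. For Rbfox3 this was 18.9%, so these 3 members were among the less often detected genes there. By share of cells the order was Map2, Dcx, Rbfox3 and Gad1 in culture 1, where the intervals of Rbfox3 and Gad1 overlapped, and Map2, Rbfox3, Dcx and Gad1 in culture 2. This is an order of detection, which transcript length and capture also move, and not of expression level.

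**Figure D1:**
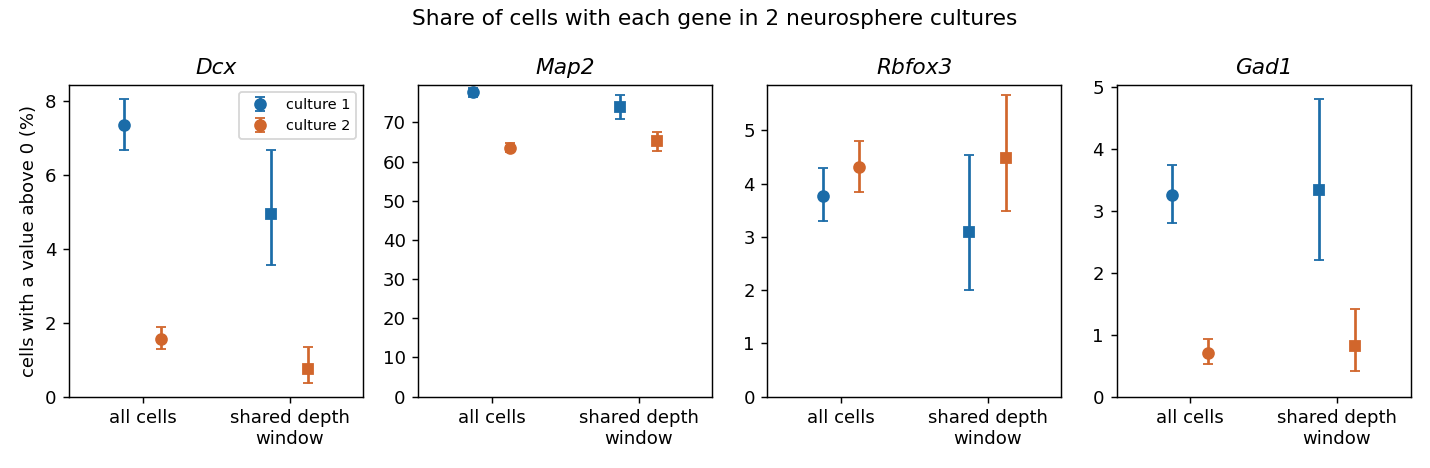
Share of cells (%) with a value above 0 for each of the 4 genes, in all cells and in cells within a shared window of sequencing depth, with blue for culture 1 and orange for culture 2. Points are shares and bars exact 95% binomial intervals. Dcx and Gad1 lie several-fold lower in culture 2 in both settings, at 1.56% and 0.709% of all cells, while the Rbfox3 intervals overlap.

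Culture 1 was sequenced more deeply per cell, so the shares were also taken within a window of 15018 to 17565 UMIs, which held 809 cells of culture 1 and 1472 of culture 2. Within it, Dcx was detected in 4.94% (3.56 to 6.67) of culture 1 cells and 0.747% (0.374 to 1.33) of culture 2 cells. Gad1 stood at 3.34% (2.21 to 4.82) and 0.815% (0.422 to 1.42). Map2 stood at 74.0% (70.9 to 77.0) and 65.1% (62.6 to 67.6), so its intervals also stayed apart. Rbfox3 stood at 3.09% (2.01 to 4.53) and 4.48% (3.48 to 5.67). When detection instead required 0.9 estimated UMIs on the deposited scale, where 1 UMI of a gene is not worth the same in both cultures, Gad1 stood at 0.087% and 0.709%, Dcx at 2.61% and 1.56%, and Map2 at 62.2% and 62.1%. With detection at 0.75 of the value of 1 UMI of the gene in that culture, Gad1 stood at 2.26% and 0.425%, Dcx at 6.80% and 1.49%, and Map2 at 77.0% and 62.1%. With any value above 0 taken as detection, the intervals of Dcx, Gad1 and Map2 were apart between the cultures at matched depth. No difference in Rbfox3 was detectable at this depth. The Map2 shares differed only 1.14-fold in the window. How many of all genes had intervals apart there was not counted, so a gap of this size may not be particular to Map2. With 1 library per culture, what the cultures differ in and what the libraries differ in cannot be told apart.

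Most cells that held Rbfox3 or Gad1 were estimated to hold no more than about 1 transcript. The value that 1 UMI gave was read from each gene's values in each culture, and a cell at 1.5 times that value or more was taken to hold several UMIs. Of the Rbfox3 cells, 17 of 217 in culture 1 (7.83%) and 14 of 304 in culture 2 (4.61%) held several. For Gad1 the numbers were 5 of 187 (2.67%) and 2 of 50 (4.0%). Dcx cells held several UMIs far more often than this, in 149 of 422 cells (35.3%) and 37 of 110 cells (33.6%), although fewer cells held Dcx than Rbfox3 in culture 2. Map2 cells did so in 66.1% and 51.7% of cases. The highest estimates in a single cell were 27.2 Map2 UMIs in culture 1 and 12.0 Dcx UMIs in culture 2, against at most 3.09 for Rbfox3 and 2.45 for Gad1. Dcx was thus gathered in few cells, while Rbfox3 and Gad1 were mostly estimated at about 1 transcript or less per cell.

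The shares followed depth in different ways. With each culture cut into 5 classes of equal cell number by total UMIs, Map2 rose at every step, with 69.3% in the shallowest class of culture 1 and 89.7% in the deepest, against 50.4% and 79.9% in culture 2. Rbfox3 also rose at every step, with 2.17% and 5.83% at the ends in culture 1 and 2.55% and 7.01% in culture 2. Gad1 stood at 1.91% and 4.96% at the ends in culture 1, and at 0.708% and 0.921% in culture 2. Dcx did not follow depth. Its share in culture 1 was 15.2% in the shallowest class, 2.79% in the class next to the deepest and 9.39% in the deepest. In culture 2 it was 1.84% in the shallowest class, 0.425% in the second and 3.75% in the deepest. Dcx cells had a median of 15219 UMIs against 19618 in other cells of culture 1, but 17850 against 14611 in culture 2, so their depth did not differ in one direction.

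**Figure D2:**
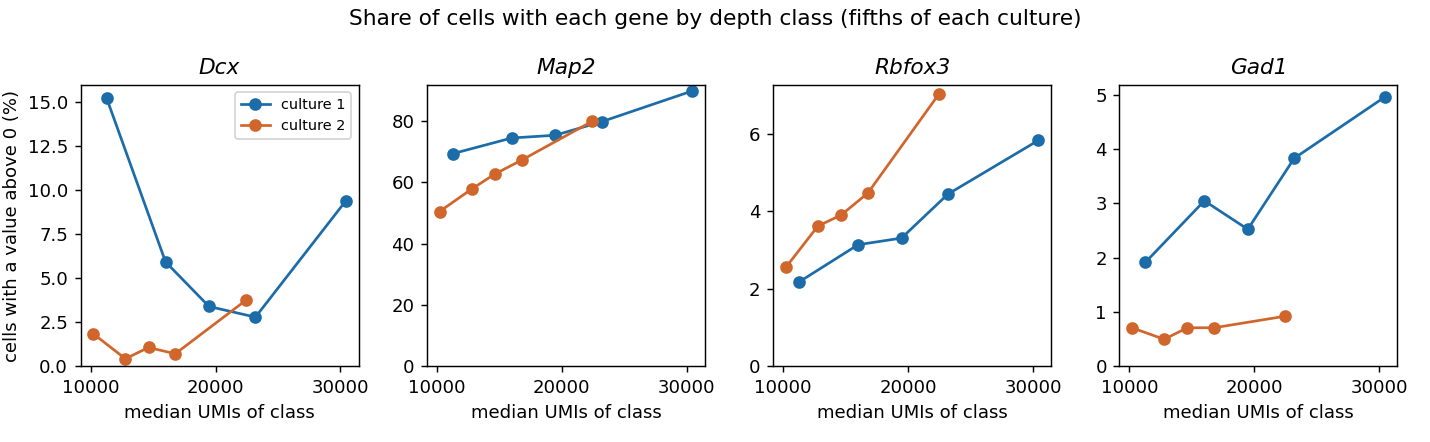
Share of cells (%) with a value above 0 for each gene against the median UMIs of 5 depth classes of equal cell number in each culture, with blue for culture 1 and orange for culture 2. Map2 and Rbfox3 climb with depth in both cultures, while Dcx is highest in the shallowest class of culture 1 (15.2%) and in the deepest class of culture 2 (3.75%).

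Free RNA in droplets can give stray transcripts, so the shares were set beside those in cells not expected to use Rbfox3 or Gad1. One comparison group was the cells with Pdgfra plus Sox10 or Cspg4, and the other was the cells that the deposited 5-stage calls placed in G2.M. The first group held 162 cells of culture 1 (median 19798 UMIs) and 45 of culture 2 (median 19439 UMIs). Rbfox3 was detected in 7.41% (3.89 to 12.6) and 8.89% (2.48 to 21.2) of these cells, with intervals that overlapped those of all cells. In G2.M cells (547 and 665 cells, median 17514 and 13275 UMIs) it was detected in 2.19% (1.14 to 3.80) and 2.26% (1.27 to 3.69), below its share in all cells of 3.78% and 4.31%, and in culture 2 these intervals were apart. The comparison groups thus lay on either side of the share in all cells for Rbfox3, and the part of free RNA in it was not tested. G2.M cells were shallower than all cells, and Rbfox3 rose with depth. Gad1 was detected in 3.09% (1.01 to 7.05) of the Pdgfra cells in culture 1 and in 0 of 45 in culture 2, and in 2.93% and 0.752% of G2.M cells. The share of Gad1 in all cells, 3.25% and 0.709%, was thus not distinguishable from that in the comparison cells at this depth. Dcx was detected in 31.5% (24.4 to 39.2) of the Pdgfra cells of culture 1 against 6.64% (6.00 to 7.33) of all other cells, and in 26.7% (14.6 to 41.9) against 1.40% (1.14 to 1.70) in culture 2. Map2 stood at 85.8% (79.5 to 90.8) against 77.5% (76.3 to 78.5), and at 86.7% (73.2 to 94.9) against 63.4% (62.3 to 64.6). These intervals did not overlap, so detection of Dcx and Map2 differed between classes of cells within each culture. In culture 2 the Pdgfra cells were also deeper than the others, whose median was 14624 UMIs.

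Across the 6 pairs of members, Dcx and Map2 were found together in more cells than their shares within depth classes give. The expected number was computed from the share of each gene in each of the 5 depth classes. Dcx and Map2 shared 361 cells in culture 1 against 323.7 expected, a ratio of 1.12, and 96 cells in culture 2 against 75.03 expected, a ratio of 1.28. Put as shares, Map2 was detected in 85.5% (81.8 to 88.8) of Dcx cells against 77.1% (75.9 to 78.2) of other cells in culture 1, and in 87.3% (79.6 to 92.9) against 63.2% (62.1 to 64.3) in culture 2. Their Pearson correlation across cells, on log2(value + 1), was 0.147 over 5748 cells and 0.0951 over 7057 cells. Both genes share each cell's depth, and cells are not replicates, so these are descriptions. Because most cells held Map2, its ratios had little room above 1.

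Pairs with Rbfox3 or Gad1 rested on few cells. Dcx and Rbfox3 shared 18 cells against 14.9 expected in culture 1 and 9 against 5.63 in culture 2, ratios of 1.21 and 1.60. Dcx and Gad1 shared 9 against 13.0 in culture 1, and 0 of the 110 Dcx cells in culture 2 held Gad1, where 0.879 were expected. Rbfox3 and Gad1 shared 5 cells against 7.81 and 3 against 2.26. Map2 was found with Rbfox3 at 1.03 and 1.04 times the expected number and with Gad1 at 0.978 and 0.924 times. None of the 6 pairs reached a ratio of 1.5 in both cultures (0 of 6), where 8 of 276 pairs of genes from a list of neuronal genes did (2.9%). The pairs with Map2 could not reach it, since Map2 was in at least 69.3% of the cells of every depth class of culture 1. Pairs of the list with other widely held genes were limited in the same way. Of those 8 pairs, 7 joined Dcx with another gene and 1 joined Stmn4 with Nefm.

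Few cells carried several members at once. At least 2 members were detected in 661 cells of culture 1 against 625.0 expected from the depth classes, and in 331 cells of culture 2 against 307.2. At least 3 were detected in 25 cells against 28.0 expected and in 9 cells against 6.20. All 4 occurred together in 2 cells of culture 1 and in 0 of the 7057 cells of culture 2. Cells with at least 3 were deep, with median UMIs of 25593 and 25242 in the classes with exactly 3 members of cultures 1 and 2.

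None of the 4 members passed the criterion used for following the cell cycle, and Map2 came closest to it. Few genes of the table passed it, so a count over 4 members says little. Each cell carries a deposited cell-cycle position, an angle from 0 to 2π computed by the tricycle method, on which S phase centres near 0.75π, mitosis lies near 1.5π, and the arc from 1.75π through 0 holds G1 and resting cells. The share of a gene's variance over cells that the position accounts for (R2) was taken from a fit of log2(value + 1) with 2 harmonics, and a gene was called when R2 was at least 0.05 in both cultures. Of all 10666 genes, 428 (4.01%) were called, and 0 of the 4 members. R2 of Map2 was 0.0117 in culture 1 and 0.0104 in culture 2, higher than that of 85.5% of genes by its lower value. Rbfox3 had 0.00249 and 0.0032, Dcx 0.0022 and 0.00138, and Gad1 0.00093 and 0.000954, around the median of all genes by the lower value, 0.00183. Against genes found in a similar share of cells, the lower value was higher than that of 83.6% for Rbfox3 and 73.5% for Map2. For Gad1 it was higher than that of 66.4% and for Dcx of 62.3%. For scale, Top2a, a topoisomerase of dividing cells, had 0.666 and 0.655. Of the 24 genes with a row in the neuronal list, 1 was called, a share near that of all genes. It was Nsg1, a neuronal endosomal protein, at 0.11 and 0.0621.

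Small differences along the cycle were nevertheless similar in both cultures for Map2. Across 8 classes of 0.25π, the share of Map2 cells was highest at 83.7% between 0.75π and 1π in culture 1 and at 71.0% between 0.5π and 0.75π in culture 2. Among the 6 classes of each culture with at least 300 cells, it was lowest between 1.75π and 2π, at 73.1% and 59.4%. The median depth was 22967 and 17148 UMIs between 0.75π and 1π against 18437 and 13991 between 1.75π and 2π, and Map2 rose with depth. With depth as a term in the fit, the partial R2 of Map2 was 0.00842 by its lower value. The share of Dcx cells ran between 5.09% and 10.4% in the classes of culture 1 with at least 300 cells, highest between 1π and 1.25π. In culture 2 it ran between 1.34% and 3.11%, highest between 0.75π and 1π. Rbfox3 was highest at 5.54% between 0.75π and 1π in culture 1 and at 6.62% between 0.25π and 0.5π in culture 2, and no class of Gad1 passed 3.73% or 1.53%. The classes between 1.25π and 1.75π held only 85 and 64 cells of culture 1, and their intervals were wide.

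**Figure D3:**
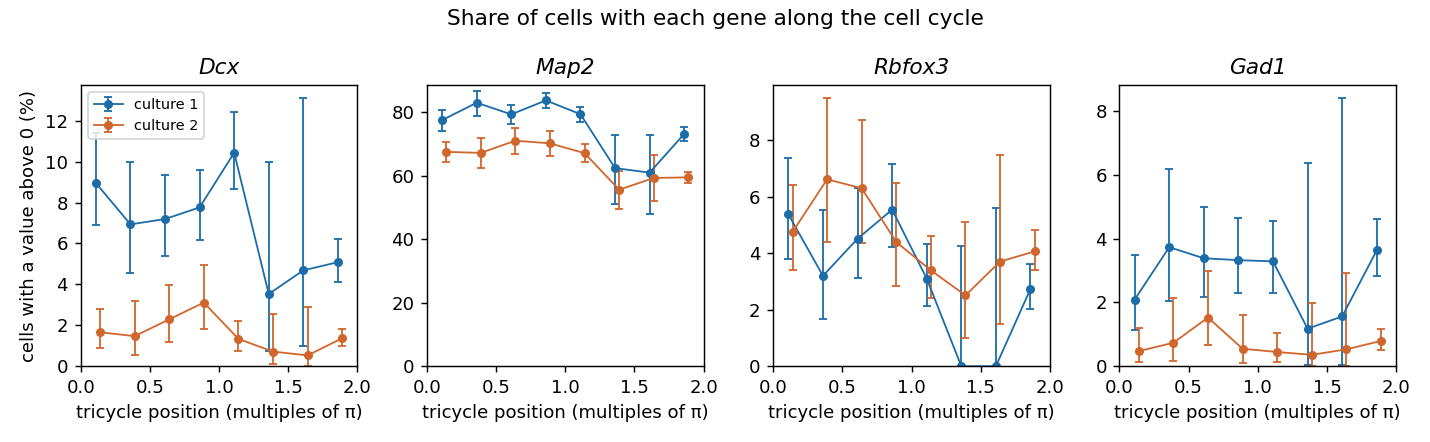
Share of cells (%) with a value above 0 for each gene in 8 classes of cell-cycle position (multiples of π), with blue for culture 1 and orange for culture 2 and bars for exact 95% binomial intervals. Map2 stays between 55.6% and 83.7% in every class, and the other genes show no peak of the same place and size in both cultures.

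Dcx cells held transcripts of dividing cells at shares no lower than those of other cells. Top2a was detected in 63.3% (58.5 to 67.9) of Dcx cells and 58.1% (56.8 to 59.4) of other cells in culture 1, and in 51.8% (42.1 to 61.4) and 38.9% (37.7 to 40.0) in culture 2. Mki67, another gene of dividing cells, was detected in 51.4% (46.5 to 56.3) of Dcx cells against 44.0% (42.7 to 45.4), and in 37.3% (28.2 to 47.0) against 31.9% (30.8 to 33.1). The deposited stage calls of Seurat placed 35.8% of Dcx cells in G2M against 26.0% of other cells in culture 1, and 21.8% against 24.0% in culture 2. An arc from 1.5π through 0 to 0.25π takes in G1 and resting cells and starts where mitosis lies. It held 36.5% of Dcx cells against 44.5% of others in culture 1, and 52.7% against 59.3% in culture 2. The Dcx cells of culture 2 were also the deeper ones. Rbfox3 cells had Top2a in 66.4% and 44.4%, and Gad1 cells in 62.0% and 36.0%.

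Genes found more often in Dcx cells formed a broad group, and Rbfox3 and Gad1 had few such partners. A partner was counted when it was found with the member in at least 1.5 times the expected number of cells in both cultures, among genes with at least 5 expected cells in each. For Dcx, 177 of 8823 genes (2.01%) were higher and 86 (0.975%) lower. Without the deepest 5% of cells of each culture, 105 of 8144 genes were higher and 154 lower, and 94 of the 177 were among the 105. For Rbfox3, 5 genes (0.0516%) were higher and 13 (0.134%) lower of 9684, and for Gad1 1 (0.0141%) and 2 (0.0283%) of 7072. For Map2, 0 of 10665 genes were lower. No gene could be counted as higher with Map2, since Map2 was in at least 69.3% of the cells of every depth class of culture 1. The 5 genes higher with Rbfox3 were Aox1, Nckap5l, Slc2a12, B4galt1 and Gm47689, and the gene higher with Gad1 was Hps4, named after their values were seen. None of these is in the neuronal or interneuron lists.

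Of the list of genes of neuronal maturation and cytoskeleton, 7 of the 21 non-members that could be tested were higher in Dcx cells, beside 2.01% of all genes, and 0 were lower. Without the deepest 5% of cells, 5 of 19 were higher, beside 105 of 8144 of all genes tested. At a ratio of 2 only Celf4 was, beside 29 of 8823 of all genes tested. In the shared depth window 8 could be tested and 0 were higher, beside 1 of 2470 of all genes tested. That window held 40 Dcx cells of culture 1 and 11 of culture 2. Only genes held by many cells could be tested in it, and their ratios have less room above 1. The median of the list by the lower ratio was 1.28, beside 0.957 over all genes tested. Nsg2, a vesicle protein of neurons, was detected in 41.0% (36.3 to 45.9) of Dcx cells and 17.2% (16.2 to 18.3) of others in culture 1, and in 42.7% (33.3 to 52.5) and 10.7% (9.94 to 11.4) in culture 2. Mapt, which encodes the axonal microtubule protein tau, was detected in 64.2% (59.4 to 68.8) against 38.6% (37.3 to 39.9), and in 67.3% (57.7 to 75.9) against 29.96% (28.9 to 31.0). Stmn4, a tubulin-binding stathmin, stood at 24.2% against 9.22% and at 33.6% against 13.9%. Celf4, an RNA-binding protein of neurons, stood at 19.9% against 8.73% and at 23.6% against 6.91%. Ina and Nefm, neurofilament subunits, were at 1.78 and 1.58 times the expected number in culture 1 and at 3.19 and 2.59 times in culture 2. Dpysl5, a relative of the growth cone protein CRMP, was at 1.82 and 2.22 times. Genes of the list that nearly every cell held were close to 1, such as Gap43 at 0.986 and 1.02 and Rtn1 at 0.996 and 1.06. Map1b, a microtubule protein of growing axons, was below the expected number without passing the threshold, at 60.2% (55.3 to 64.9) of Dcx cells against 78.4% (77.3 to 79.5) in culture 1 and at 81.8% (73.3 to 88.5) against 94.0% (93.4 to 94.5) in culture 2. Snap25, of the synaptic release machinery, was at 1.28 and 1.97 times, and Syt1, a calcium sensor of vesicles, at 1.99 and 1.21 times, so neither reached 1.5 in both cultures.

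**Figure D4:**
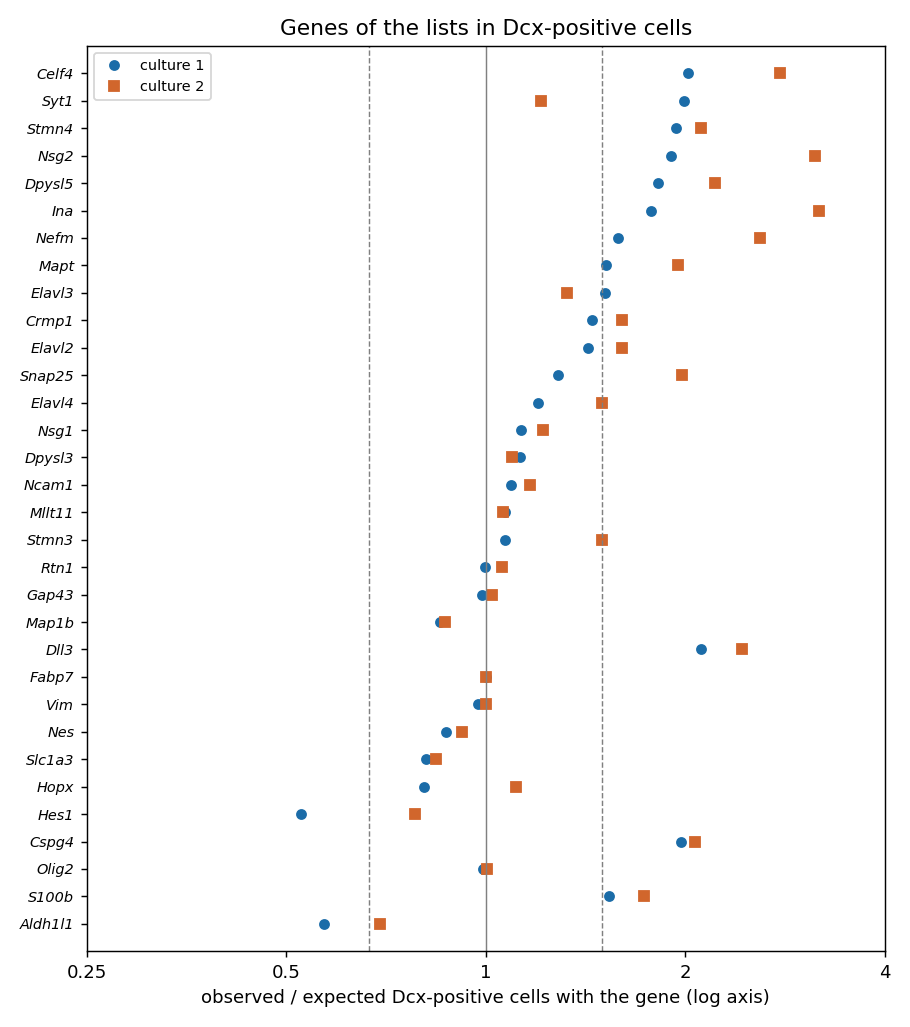
Observed over expected number of Dcx cells that hold each listed gene (log axis), with blue circles for culture 1 and orange squares for culture 2, for the 32 genes of the neuronal, neurogenic, radial glia, oligodendrocyte precursor and astroglia lists with at least 5 expected cells in both cultures. The dashed lines mark 1.5 and its inverse. The 7 neuronal genes Celf4, Stmn4, Nsg2, Dpysl5, Ina, Nefm and Mapt lie right of 1.5 in both cultures, with Dll3, Cspg4 and S100b, while Slc1a3 lies left of 1.

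Of the factors that drive neurogenesis, Dll3, a Notch ligand of neurogenic progenitors, was the one gene with enough expected cells, and it was higher in Dcx cells. It was detected in 49.5% (44.7 to 54.4) of Dcx cells against 16.0% (15.0 to 17.0) in culture 1, and in 30% (21.6 to 39.5) against 11.4% (10.7 to 12.2) in culture 2. Myt1, a zinc finger factor of neurogenesis and of oligodendrocyte precursors, had too few expected cells to be counted and stood at 20.9% against 5.18% and at 14.5% against 1.97%. Bcl11b, a factor of deep-layer cortical neurons, was likewise not counted and stood at 18.5% against 4.28% and at 14.5% against 2.33%. In the interneuron list, 0 of the 6 non-members that could be counted were higher or lower. Erbb4, a neuregulin receptor of interneurons and other neural cells, had too few expected cells in culture 2 and stood at 20.6% against 5.84% and at 10.9% against 1.99%. Meis2, a homeobox factor, was at 0.955 and 1.11 times the expected number and Maf at 0.371 and 0.935 times. Of 4 dorsal telencephalon factors, 0 were higher or lower, with Lhx2 at 0.777 and 0.889.

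Markers of the oligodendrocyte lineage moved with Dcx too. Of the oligodendrocyte precursor markers, Cspg4 was detected in 24.2% (20.2 to 28.5) of Dcx cells against 10.8% (10.0 to 11.7) in culture 1, and in 34.5% (25.7 to 44.2) against 13.4% (12.6 to 14.2) in culture 2. Pdgfra, the receptor that defines the precursors, was detected in 28.4% (24.2 to 33.0) of Dcx cells against 7.21% (6.53 to 7.94), and in 17.3% (10.7 to 25.7) against 1.57% (1.29 to 1.89). Sox10 was detected in 17.3% (13.8 to 21.3) against 3.23% (2.77 to 3.74), and in 10.9% (5.77 to 18.3) against 0.59% (0.424 to 0.80). Pdgfra and Sox10 had under 5 expected cells in culture 2 and were not counted. Olig2 was in nearly every cell, with and without Dcx. Mbp, a myelin gene, stood at 14.0% against 4.73% and at 6.36% against 0.792%. Of the radial glia markers, 0 of 6 were called, and Slc1a3, a glutamate transporter of radial glia, stood at 70.9% (66.3 to 75.1) of Dcx cells against 93.8% (93.1 to 94.4) and at 80.0% (71.3 to 87.0) against 94.3% (93.7 to 94.8). Hes1, a Notch target that holds progenitors back, stood at 20.4% against 46.4% and at 41.8% against 50.6%. The rest of the radial glia markers were closer to the expected number or differed in direction. Nes was at 0.872 and 0.92 times, Vim at 0.974 and 1.001, Fabp7 at 1.0 and 1.001, and Hopx at 0.807 and 1.11. Of the astroglia genes, S100b was higher, at 1.53 and 1.73 times the expected number, and Aldh1l1 stood at 0.57 and 0.691 times. Markers of microglia, endothelium, mural cells and ependyma had no row and were not analysed here.

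The overlap with oligodendrocyte precursor genes was partial. Pdgfra or Sox10 was detected in 165 of 422 Dcx cells of culture 1 (39.1%) and in 27 of 110 of culture 2 (24.5%). Put the other way, Dcx was detected in 24.4% of the 677 cells with Pdgfra or Sox10 in culture 1 and in 16.6% of the 163 such cells in culture 2. Neuronal genes were also frequent in Dcx cells in which neither was detected. Nsg2 was found in 39.3% (33.3 to 45.6) of these 257 cells of culture 1, beside 43.6% (35.9 to 51.6) of the cells with Dcx and either gene, 33.4% of the cells with either gene but no Dcx, and 15.5% of the 4814 cells with none. In culture 2 the shares were 41.0%, 48.1%, 27.9% and 10.3%. Mapt ran in the same order, at 61.1%, 69.1%, 57.4% and 36.6% in culture 1 and at 66.3%, 70.4%, 56.6% and 29.4% in culture 2. Cells with Pdgfra or Sox10 but no Dcx thus also held neuronal genes more often than cells with none of the 3 genes. A single missed transcript can place a cell in the wrong class, so the classes are not pure, and the part of the oligodendrocyte lineage or of doublets in the Dcx pattern was not tested.

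**Figure D5:**
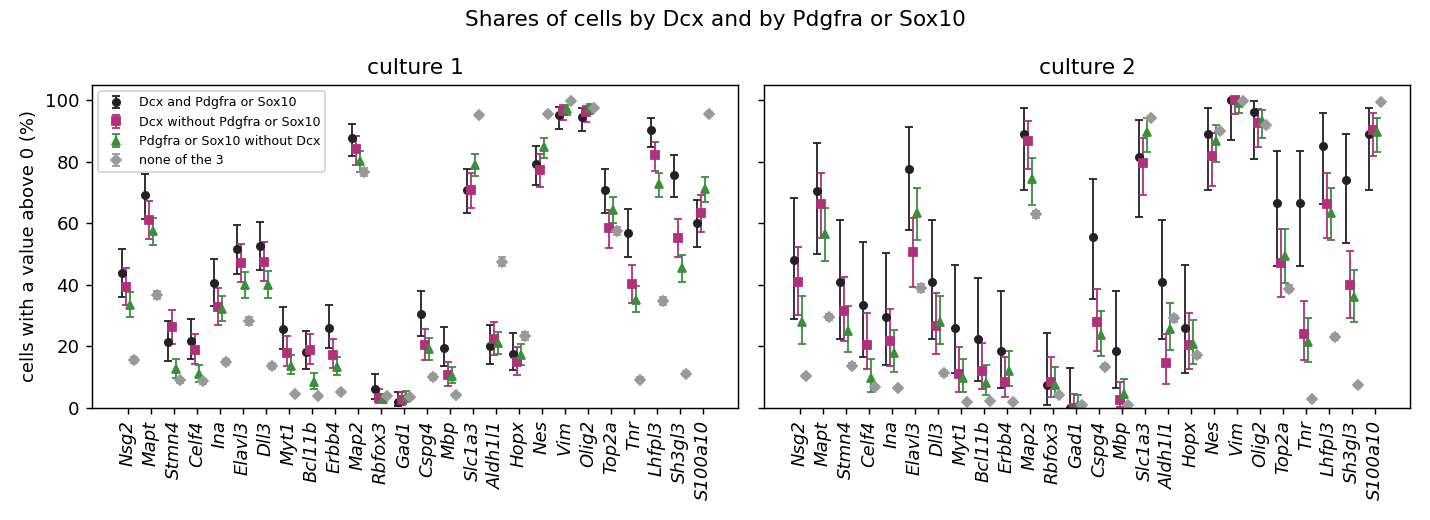
Share of cells (%) with a value above 0 for 26 genes in 4 classes of cells in each culture: Dcx with Pdgfra or Sox10 (black), Dcx without either (magenta), either without Dcx (green) and none of the 3 (grey), with bars for exact 95% binomial intervals. Nsg2, Mapt, Tnr and Sh3gl3 are higher in all 3 classes than in cells with none, Slc1a3 and S100a10 are lower, and Rbfox3 and Gad1 stay low throughout.

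The 10 genes with the highest lower ratio in Dcx cells, named after their values were seen, were Sh3gl3, Plppr1, Epb41l3, Tnr, Dnm3, Igsf21, Dcc, Opcml, Nav3 and Scg5. Sh3gl3, an endophilin of vesicle endocytosis, was detected in 63.3% (58.5 to 67.9) of Dcx cells and 14.4% (13.4 to 15.3) of others in culture 1, and in 48.2% (38.6 to 57.9) and 7.83% (7.21 to 8.49) in culture 2. Tnr, the matrix protein tenascin R made by oligodendrocyte lineage cells and some neurons, stood at 46.7% against 11.6% and at 34.5% against 3.05%. Dcc, a netrin receptor that guides axons and migrating precursors, stood at 38.6% against 11.7% and at 19.1% against 4.30%. Among genes that were lower, Aldh1a3, which makes retinoic acid, stood at 4.27% against 11.3% and at 2.73% against 8.68%.

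Ranked by the lower Pearson correlation of log2(value + 1) over the cells of each culture, the genes most like Dcx were Khdrbs2 (0.235 and 0.238), Slc1a1 (0.232 and 0.259) and Sh3gl3 (0.398 and 0.230), and the nearest member was Map2, in place 74. The most opposite was S100a10, at -0.371 and -0.161. Genes most like Map2 were Gria2, an AMPA receptor subunit (0.181 and 0.112), Ncald, a neuronal calcium sensor (0.233 and 0.0995), and Spon1 (0.124 and 0.0963), and Dcx ranked next, in place 4. S100a10 was also the most opposite to Map2, at -0.223 and -0.16. For Rbfox3 the nearest gene was Rcn1, at 0.0405 and 0.0344, and a correlation this weak in sparse counts is no finding. Gad1 did not reach 1% of cells in culture 2, so its nearest genes are not named.

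The shares of some of these genes also differed between cells with about 1 Dcx UMI and cells with more. Mapt, Nsg2 and Dll3 were already counted as higher in Dcx cells, so their step up from cells without Dcx adds nothing new. The later step is given without intervals and rests on few cells in culture 2. Mapt was detected in 38.6% of cells without Dcx, 60.1% of cells with about 1 Dcx UMI and 71.8% of cells with more in culture 1, and in 29.96%, 63.0% and 75.7% in culture 2. Nsg2 went from 17.2% to 39.2% and 44.3%, and from 10.7% to 39.7% and 48.6%. Map2 went from 77.1% to 83.2% and 89.9%, and from 63.2% to 84.9% and 91.9%. Slc1a3 went the other way, from 93.8% to 72.9% and 67.1% and from 94.3% to 83.6% and 73.0%. Dll3 rose at both steps in culture 1, at 16.0%, 46.5% and 55.0%, but stood at 11.4%, 31.5% and 27.0% in culture 2. Sox10 likewise stood at 3.23%, 15.8% and 20.1% in culture 1 and at 0.59%, 12.3% and 8.11% in culture 2. Top2a had no such order, at 58.1%, 65.6% and 59.1% in culture 1 and at 38.9%, 53.4% and 48.6% in culture 2. The class with more than 1 UMI held 149 cells of culture 1 and 37 of culture 2, with median depths of 15170 and 16857 UMIs, so in culture 1 the cells with most Dcx were shallower than the cells without it.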

How the data were processed

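Single-cell libraries of 2 neurosphere cultures were made with a droplet 3′ kit. Per the study's methods, alevin (Salmon 1.3.0) gave spliced and unspliced counts on GRCm38, of which the authors used the spliced ones. The authors left out cells that were outliers for depth, gene number, mitochondrial reads or a doublet score, and rare genes. All deposited cells were used here, and doublets were not called again. The deposited values are a depth-normalized signal on a linear scale. They also differ by gene and culture in what 1 UMI is worth: 1 UMI of Dcx gave 3.78 times the value in culture 2, so that the mean value was 0.0918 and 0.0905 although the share of cells differed 4.71-fold. Over 5619 genes in 1 to 30% of cells, this step and the share of cells moved oppositely between the cultures (Spearman 0.793 of the step ratio, culture 2 over 1, with the share ratio, culture 1 over 2). Levels were therefore not compared between cultures, and shares of cells were. Total UMIs per cell were estimated counts in the deposited cell table, which also gave cell-cycle positions and stages.

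Gene symbols were matched for 10662 of 10666 identifiers, and each gene was present in at least 45 cells. Every statistic was computed within each culture with Python 3.11.15, numpy 2.4.6, scipy 1.17.1 and pandas 2.3.3. Expected numbers came from shares within 5 depth classes. Computations were tested on simulated data. No test across replicates was made, since the 2 cultures form 1 group. The members and the gene lists were chosen with earlier results of these data known. A contrast of cells with at least 4 members was planned, but culture 2 had 0 such cells, so it names no genes. Genes were named as members, as list examples, as the 3 nearest by correlation, or as said in the text. Some genes are not reported here.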

Additional observations from a re-analysis of the deposited data

How the results depend on the processing

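No paired analysis was possible because both cultures belong to 1 group. The number of members detected in at least 1% of cells of both cultures, 3, became 1 with a minimum of 5% of cells. The number of member pairs at 1.5 times the expected cells, 0, became 1 in the shared depth window, where Dcx and Rbfox3 shared 4 and 1 cells. Taking 1 culture alone gave 0 to 1. The 2 cells with 4 members became 0 when detection needed 0.9 estimated UMIs, 0 in the depth window, 1 when it needed 0.75 of the value of 1 UMI, and 34 when 3 members were enough, and leaving out 1 culture gave 0 to 2. The number of members with R2 past the threshold, 0, became 1 (Map2) at an R2 of 0.01, which 14.9% of genes passed. Detection at 0.9 estimated UMIs turned the ratio of culture 1 to culture 2 in the share of Gad1 cells from 4.59 to 0.123, and moved that of Dcx from 4.71 to 1.67 and that of Map2 from 1.22 to 1.002. With 0.75 of the value of 1 UMI in each culture the ratios were 5.32, 4.57 and 1.24. The settings named next and those on single UMIs, shared barcodes and the deepest cells were chosen after seeing the data. The 177 genes higher and 86 lower in Dcx cells, of 8823 tested, became 29 and 4 of 8823 at a ratio of 2. They became 105 and 154 of 8144 without the deepest 5% of cells. In the depth window, where only 2470 genes had 5 expected cells, they became 1 and 31. That window held 40 Dcx cells of culture 1 and 11 of culture 2. How many of the 177 could be tested in it was not counted, so a count of 0 there does not show that the pattern was lost. Of the 177, 0 were higher in the depth window, 29 at a ratio of 2, 94 without the deepest cells and 170 without barcodes found in both cultures. The 7 of 21 neuronal genes became 0 of 8, 1 of 21 (Celf4), 5 of 19 (Stmn4, Mapt, Nsg2, Celf4 and Ina) and 7 of 21. In culture 1 alone, 628 genes were higher and 609 lower of 10270 tested. In culture 2 alone, 646 were higher and 348 lower of 8824 tested. Counting error and 2 cultures limit every share, and depth keeps genes with few expected cells out of the count.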
